A study of Homo sapiens with 27 samples.

Results

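The genes that set the pace of the G1 phase of the cell cycle were followed through estrogen-independent variants of the lobular breast cancer cell lines MM134 and SUM44. They are 10 of the 60619 Ensembl genes in the deposited table and were chosen by name, with earlier results of these data known: the D-type cyclins CCND1, CCND2 and CCND3, the E-type cyclins CCNE1 and CCNE2, the kinases CDK4 and CDK6, the retinoblastoma gene RB1, and the kinase inhibitors CDKN1A (p21) and CDKN1B (p27). MM134 (MDA-MB-134VI) and SUM44 are ER-positive cell lines of human invasive lobular carcinoma. Long-term estrogen-deprived (LTED) cells had been kept for months in IMEM with charcoal-stripped serum until they grew without estrogen, which gave 4 MM134 variants (LTED-A, LTED-B, LTED-D, LTED-E) and 2 SUM44 variants (LTED-A, LTED-B). Each variant arose on its own and is 1 derivation. Their controls were parental MM134 cells and SUM44F cells, deprived of hormone for 3 days only, so that the comparison sets long against short deprivation. In the paper's growth assays, every LTED line grew faster than its parental cells kept in charcoal-stripped serum. Rate of growth thus differs along with length of deprivation, and its part in the gene levels was not tested. SUM44F itself came from SUM44PE, by growth in the serum-containing medium used for MM134, and SUM44PE, also a parental culture with the same short deprivation, was sequenced as well. RNA-Seq was done on 3 wells of each of these 9 groups, and p-values measure the spread between wells of 1 culture.

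In a cell leaving quiescence, D-type cyclins bind CDK4 or CDK6, and these kinases phosphorylate the RB1 protein, which then releases E2F transcription factors. Cyclin E with CDK2 completes this phosphorylation, and the E2F factors switch on genes for DNA replication. The p21 and p27 proteins bind and restrain cyclin-CDK complexes, and the INK4 proteins of the CDKN2 genes act on CDK4 and CDK6 alone. In ER-positive breast cancer, CCND1 is a well-known estrogen-responsive gene that is often amplified with its neighbours at 11q13.

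Libraries held 28583554 to 134882175 estimated counts. In SUM44 LTED-A, the gap between replicates 2 and 3 was smaller than sampling noise allows (chi-square per degree of freedom 0.312, against 2.35 to 58.3 for the other 26 replicate pairs) and they were counted as 1 sample, so n = 2 in that group and n = 3 in all others. Replicate 1 of SUM44 LTED-A gave lower levels than both of these for 9 of the 10 genes. Luminal markers were present in every group, with mean ESR1 levels from 150 to 1432 CPM (counts as a share of library size, scaled by the TMM method over all libraries), and CDH1, whose loss marks lobular cancers, had means between 8.92 and 22.2 CPM. Replicate 1 of SUM44F stood apart in 8 markers of other cells, which summed to 243 CPM there and to between 6.48 and 28.9 CPM in the other groups. Of these markers, 1 to 5 per group had at most 3 counts in every library. In SUM44F replicate 1 COL3A1 was at 130.5 CPM, against 0.690 and 0.459 in the other SUM44F libraries, while the T-cell marker CD3E had 7 counts. Without it, the numbers of G1 genes called in SUM44 LTED-A and LTED-B were again 3 and 7. The endothelial marker PECAM1 was not limited to that library: it stood at 26.5, 26.3 and 21.3 CPM in SUM44F, at 6.91 to 7.93 CPM in SUM44PE and at 1.89 to 4.03 CPM in the SUM44 LTED libraries. It was called lower than in SUM44F in LTED-A (-3.70 ± 0.19 on the log2 scale), LTED-B (-2.90 ± 0.15) and SUM44PE (-1.68 ± 0.13), so it moved with the comparisons against SUM44F, and its part in them was not tested. In MM134, COL1A1, another of these markers, was called lower in all 4 variants, from 1.68-fold in LTED-D to 3.01-fold in LTED-E. PECAM1 was called higher in MM134 LTED-A (4.61-fold), LTED-D (1.71-fold) and LTED-E (2.74-fold), which was not followed further.

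Sequence before the start is shown for orientation. The RefSeq promoter table used here (GRCh38.p14) matched 7 of the 10 genes, and for the 3 of these with the widest called changes against parental cells the 250 bases before the listed start are printed, namely CDKN1A (chr6:36678464-36678713, plus strand), CDK6 (chr7:92836574-92836823, minus strand) and CDKN1B (chr12:12717118-12717367, plus strand), 5′ to 3′, with capitals for GGGCGG or its complement, the letters bound by Sp1.
CDKN1A: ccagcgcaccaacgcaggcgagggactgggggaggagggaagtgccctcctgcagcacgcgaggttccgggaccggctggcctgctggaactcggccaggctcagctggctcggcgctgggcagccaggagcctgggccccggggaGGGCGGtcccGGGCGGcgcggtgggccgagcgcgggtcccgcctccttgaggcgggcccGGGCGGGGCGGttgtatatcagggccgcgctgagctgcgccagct
CDK6: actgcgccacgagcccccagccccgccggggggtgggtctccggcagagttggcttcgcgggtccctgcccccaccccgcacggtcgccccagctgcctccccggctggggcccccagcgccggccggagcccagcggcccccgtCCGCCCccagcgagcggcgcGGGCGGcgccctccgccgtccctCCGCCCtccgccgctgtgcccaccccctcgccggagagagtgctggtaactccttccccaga
CDKN1B: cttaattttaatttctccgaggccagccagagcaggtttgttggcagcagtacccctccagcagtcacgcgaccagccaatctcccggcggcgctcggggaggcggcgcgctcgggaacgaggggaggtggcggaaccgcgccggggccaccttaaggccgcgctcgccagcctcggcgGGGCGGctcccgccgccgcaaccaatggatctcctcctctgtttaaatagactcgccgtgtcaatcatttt

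The Sp1 letters occurred 4 times before CDKN1A (the last 2 overlap by 1 base), 3 times before CDK6 and 1 time before CDKN1B, and at least once in 6 of the 7 members listed. They occur in 42.6% of the 35116 promoter windows of this length. None of the 7 windows held the E2F letters TTTCCCGC, TTTCGCGC, TTTGGCGC or TTTGCCGC on either strand (2.79% of windows do), and the estrogen response half-site AGGTCA was found only before the start listed for RB1 (12.1% of windows hold it). The RB1 window (chr13:48476200-48476449) belongs to a start far inside the gene, whose 5′ end in GENCODE is at 48303744, so it does not show the sequence before that end. The windows of CCND3, CDK4, CDKN1A and CDKN1B also lie within the GENCODE gene spans, and those of CCNE1 and CDK6 end at the 5′ end of the gene. A match is a description of letters and not a bound site.

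CDKN1A, which codes for the inhibitor p21 and is a classical target of p53, was lower in all 6 LTED variants, by the widest margin of the members called in each. It lies on hg38 chromosome 6 from 36676460 to 36687337. Parental MM134 libraries held it at 49.2, 49.8 and 48.6 CPM. LTED-A libraries held 1.87, 2.04 and 2.05 CPM, and LTED-B libraries 1.38, 1.54 and 1.66 CPM. The LTED-D libraries were at 2.57, 3.27 and 2.99 CPM. LTED-E libraries kept the most of the MM134 variants, at 4.86, 3.86 and 4.52 CPM. The smallest of these rests on 59 counts, and no LTED library came near a parental one. By edgeR, the log2 fold change was -4.67 ± 0.081 (SE; adjusted p = 7.2e-19) in LTED-A, -5.04 ± 0.089 (adjusted p = 1.6e-18) in LTED-B, -4.09 ± 0.083 (adjusted p = 1.0e-17) in LTED-D and -3.51 ± 0.076 (adjusted p = 1.8e-17) in LTED-E, that is, 25.5-fold, 32.9-fold, 17.0-fold and 11.4-fold lower. The 4 variants also differed among themselves (span 1.52 on the log2 scale, adjusted p = 1.1e-09).

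SUM44F libraries held CDKN1A at 84.2, 84.0 and 65.7 CPM and SUM44PE libraries at 54.3, 59.8 and 59.2 CPM. In SUM44 LTED-A it was 5.25, 6.84 and 6.76 CPM, and in LTED-B 11.9, 13.1 and 12.9 CPM. Both variants thus lay below every parental library, LTED-A lowest. The log2 fold change against SUM44F was -3.75 ± 0.14 (adjusted p = 1.4e-08) in LTED-A and -2.67 ± 0.11 (adjusted p = 2.5e-08) in LTED-B, or 13.5-fold and 6.37-fold lower. LTED-A was 2.12-fold below LTED-B (adjusted p = 0.00012), a call that was lost without replicate 1 of LTED-A (log2 difference -0.97, adjusted p = 0.0037). Averaged over variants, the changes were -4.33 in MM134 and -3.21 in SUM44 on the log2 scale, with a fitted difference of -1.13 ± 0.11 (adjusted p = 6.6e-09). Single variants of the 2 lines overlapped, since SUM44 LTED-A (-3.75) fell further than MM134 LTED-E (-3.51). This p-value measures the spread between wells and not that between variants. SUM44PE and SUM44F did not pass the test (-0.40 ± 0.093, adjusted p = 0.0071), while parental MM134 cells held 1.61-fold less CDKN1A than SUM44F (adjusted p = 1.6e-07). In the order of the 9 groups by CDKN1A level, the 3 hormone-deprived parental groups came first, and no neighbouring groups overlapped.

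**Figure D1:**
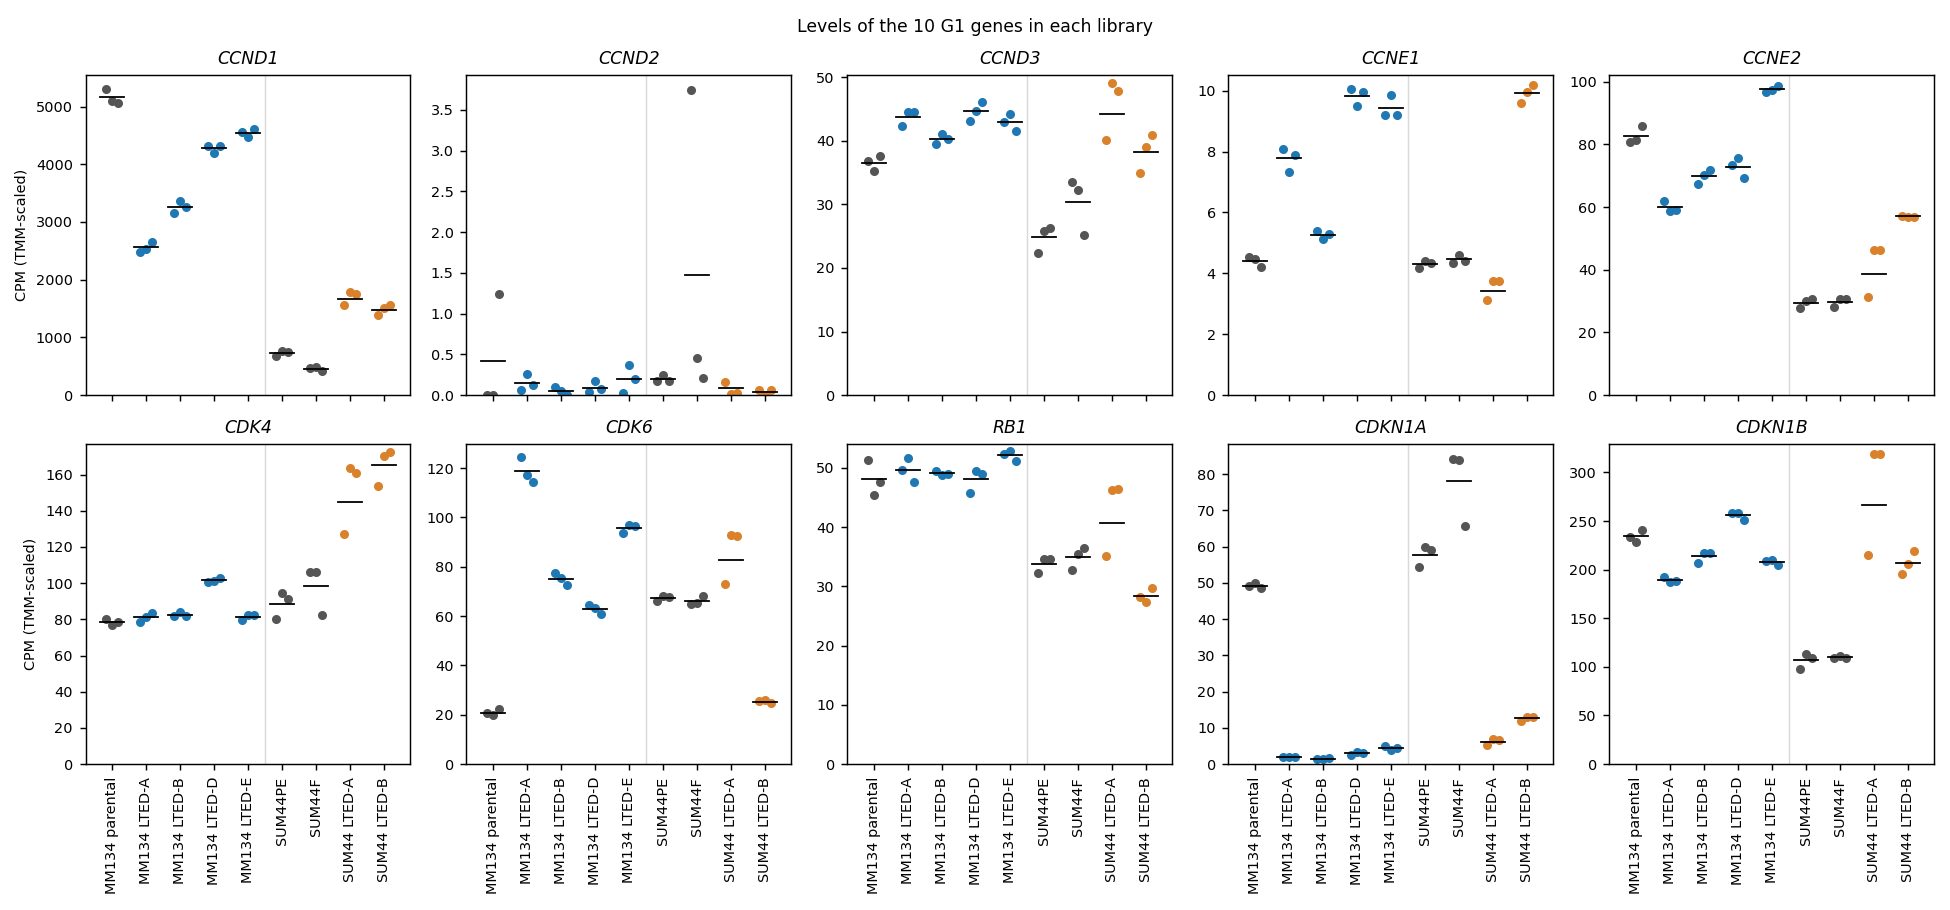
TMM-scaled CPM (linear axes from 0) of the 10 genes in each of the 27 libraries, by group. Points are libraries, grey for parental groups, blue for MM134 LTED and orange for SUM44 LTED, and lines are group means, with replicates 2 and 3 of SUM44 LTED-A counted once. CDKN1A falls from 48.6 to 84.2 CPM in parental libraries to at most 13.1 CPM in LTED libraries, and CCND1 falls in MM134 LTED-A and LTED-B but rises in SUM44.

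CDKN1B, the gene of the second inhibitor p27, lies on chromosome 12 from 12685498 to 12722369 and behaved differently in the 2 cell lines. In parental MM134 cells it was at 233, 229 and 241 CPM. The MM134 LTED libraries spanned 187 to 259 CPM, with log2 fold changes from -0.34 in LTED-A to 0.10 in LTED-D, none of them beyond 1.5-fold. SUM44F libraries held CDKN1B at 109, 111 and 109 CPM. Both SUM44 variants were above them in every library, with 215, 319 and 319 CPM in LTED-A and 195, 206 and 219 CPM in LTED-B. CDKN1B rose by 1.21 ± 0.10 on the log2 scale in LTED-A (2.31-fold, adjusted p = 7.9e-06) and by 0.87 ± 0.096 in LTED-B (1.83-fold, adjusted p = 3.5e-05). The change in MM134 minus that in SUM44 was -1.20 ± 0.077 (adjusted p = 1.2e-11). Before any LTED selection, parental MM134 cells held 2.10-fold more CDKN1B than SUM44F (adjusted p = 1.8e-12). The SUM44 LTED libraries, at 195 to 319 CPM, overlapped the range of the MM134 libraries.

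Set against each other per kb of canonical transcript, p27 message exceeded p21 message in every group. The ratio CDKN1B to CDKN1A was 1.25 ± 0.18 (SD, n = 3) in SUM44F and 4.19 ± 0.16 (SD, n = 3) in parental MM134 cells. It stood at 38.6 ± 3.6 (SD, n = 2) in SUM44 LTED-A, at 14.4 ± 0.55 (SD, n = 3) in SUM44 LTED-B, and between 41.8 and 123 in the MM134 variants. With the longer union of all exons in place of the canonical transcript, the ratio dropped to 0.456 in SUM44F and 0.599 in SUM44PE, so which inhibitor was higher in these 2 groups depended on the length used.

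CCND1, which codes for cyclin D1, moved in opposite directions in the 2 cell lines. It lies on chromosome 11 from 69641156 to 69654474. Parental MM134 libraries held 5310, 5093 and 5070 CPM, or 0.556% to 0.592% of all counts, which made it the 6th most abundant gene by CPM. Levels were 2483, 2533 and 2656 CPM in MM134 LTED-A and 3148, 3361 and 3266 CPM in LTED-B. LTED-D libraries were at 4310, 4204 and 4324 CPM and LTED-E libraries at 4553, 4467 and 4607 CPM. All 12 LTED libraries were below the 3 parental ones. CCND1 fell 2.06-fold in LTED-A (-1.05 ± 0.032 on the log2 scale, adjusted p = 2.2e-15) and 1.62-fold in LTED-B (-0.69 ± 0.031, adjusted p = 1.3e-12). Values in LTED-D (-0.30 ± 0.031, adjusted p = 1.6e-07) and LTED-E (-0.22 ± 0.031, adjusted p = 1.0e-05) were past the p threshold but within 1.5-fold. The span among variants was 0.83 on the log2 scale (adjusted p = 2.4e-13).

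In SUM44F, CCND1 was at 473, 494 and 409 CPM. LTED-A held 1555, 1779 and 1754 CPM and LTED-B 1390, 1503 and 1555 CPM, so that the lowest LTED library was well above the highest parental one. CCND1 rose 3.46-fold in LTED-A (1.79 ± 0.12 on the log2 scale, adjusted p = 9.7e-07) and 3.14-fold in LTED-B (1.65 ± 0.11, adjusted p = 8.1e-07). The 2 variants were not told apart (difference 0.14 ± 0.12, adjusted p = 0.44). SUM44PE libraries lay between, at 679, 760 and 749 CPM, 1.62-fold above SUM44F (adjusted p = 0.00011), and this call was lost without SUM44PE replicate 2 (adjusted p = 0.0012) or replicate 3 (adjusted p = 0.0013). The change in MM134 minus the change in SUM44 was -2.29 ± 0.067 (adjusted p = 1.1e-17), from mean changes of -0.56 and 1.72. Even so, the lowest MM134 LTED library held more CCND1 than the highest SUM44 LTED library, since parental MM134 cells started 11.1-fold above SUM44F (adjusted p = 4.9e-22). ESR1, which codes for the estrogen receptor, fell in MM134 LTED-A (-1.27 on the log2 scale) and rose in SUM44 LTED-A (1.30) and LTED-B (1.25). In MM134 LTED-B, where CCND1 fell, ESR1 had a higher mean (537 CPM) than in parental cells (355 CPM), at 0.57 on the log2 scale, within 1.5-fold. ESR1 was not called in MM134 LTED-D or LTED-E either, and its relation to CCND1 was not tested. At the protein level, the paper reports less ER in MM134 LTED cells and more in SUM44 LTED cells than in their parental cells.

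The other D-type cyclins were minor. CCND3 stayed within 1.5-fold in all 6 variants, with log2 fold changes from 0.11 to 0.48 and group means from 24.9 CPM in SUM44PE to 44.7 CPM in MM134 LTED-D. Per kb of transcript, CCND1 exceeded CCND3 by 67.5 ± 2.6 times (SD, n = 3) in parental MM134 cells and by 27.9 ± 0.67 times (SD, n = 3) in MM134 LTED-A. In SUM44 that ratio went from 7.28 ± 0.51 (SD, n = 3) in SUM44F to 17.99 ± 0.79 (SD, n = 2) in LTED-A, and it was 18.5 ± 0.42 (SD, n = 3) in LTED-B. CCND2 was near 0, with group means from 0.0421 to 1.47 CPM, and passed no test. Its counts were 178, 24 and 19 in SUM44F and 0, 0 and 39 in parental MM134 cells, and at most 17 in every LTED library, so that 1 library set each parental mean. The libraries with 178 and 39 counts of CCND2 also held the most COL3A1 of their groups (130.5 and 5.45 CPM), and the same was true in MM134 LTED-D (6 counts of CCND2 beside 5.25 CPM of COL3A1). In MM134 LTED-E, however, CCND2 reached 17 counts while COL3A1 had at most 3 counts in every library. The part of collagen-expressing cells in the CCND2 counts was not tested. Where the libraries of a group are bulk RNA, fewer cells of a type and less RNA per cell cannot be told apart.

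CDK6 was raised in every MM134 variant and lowered in one SUM44 variant. It lies on chromosome 7 from 92604921 to 92836573, and its protein shares its cyclin partners and its RB1 substrate with CDK4. Parental MM134 libraries held 20.8, 19.8 and 22.2 CPM. The LTED-A libraries were at 125, 117 and 114 CPM and the LTED-E libraries at 93.8, 97.0 and 96.6 CPM. LTED-B libraries held 77.4, 75.4 and 72.5 CPM and LTED-D libraries 64.3, 63.2 and 61.0 CPM. No variant overlapped parental cells or another variant. CDK6 rose 5.56-fold in LTED-A (2.47 ± 0.044 on the log2 scale, adjusted p = 1.0e-18), 4.49-fold in LTED-E (2.17 ± 0.044, adjusted p = 7.8e-18), 3.52-fold in LTED-B (1.82 ± 0.045, adjusted p = 1.8e-16) and 2.95-fold in LTED-D (1.56 ± 0.045, adjusted p = 1.8e-15).

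SUM44F libraries held CDK6 at 65.0, 65.2 and 68.0 CPM, above parental MM134 cells, which had 3.21-fold less (adjusted p = 3.4e-17). In SUM44 LTED-A it was 73.0, 92.9 and 92.4 CPM (0.26 ± 0.075 on the log2 scale, adjusted p = 0.021), which did not pass. In SUM44 LTED-B it was 25.5, 25.9 and 24.7 CPM, 2.69-fold below SUM44F (-1.42 ± 0.070, adjusted p = 8.9e-08) and 3.21-fold below LTED-A (adjusted p = 2.0e-07). MM134 minus SUM44 gave 2.58 ± 0.066 (adjusted p = 1.3e-18), from mean changes of 2.004 and -0.58, and the SUM44 mean joins 2 variants of opposite sign.

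CDK4, on chromosome 12 from 57747727 to 57756013, moved less. Its MM134 log2 fold changes were 0.01 in LTED-A, 0.04 in LTED-B, 0.34 in LTED-D and 0.02 in LTED-E, and no MM134 variant passed. SUM44F libraries held 106, 106 and 82.6 CPM, LTED-A 127, 164 and 161 CPM, and LTED-B 154, 170 and 172 CPM. CDK4 rose 1.63-fold in SUM44 LTED-B (0.71 ± 0.10 on the log2 scale, adjusted p = 0.00024), but the call was lost when any 1 of its replicates was left out (adjusted p from 0.0012 to 0.0018), and LTED-A did not pass (0.49 ± 0.11, adjusted p = 0.0058).

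Per kb of transcript, CDK4 exceeded CDK6 in every group. The ratio was 23.5 ± 1.2 (SD, n = 3) in parental MM134 cells and came down to 4.28 ± 0.33 in LTED-A, 5.31 ± 0.021 in LTED-E, 6.88 ± 0.23 in LTED-B and 10.1 ± 0.39 in LTED-D (each SD, n = 3). In SUM44 it went from 9.33 ± 1.5 (SD, n = 3) in SUM44F to 40.8 ± 3.0 (SD, n = 3) in LTED-B, and in LTED-A it was 10.9 ± 0.036 (SD, n = 2). The lowest and the highest ratio were thus both found in LTED cells.

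**Figure D2:**
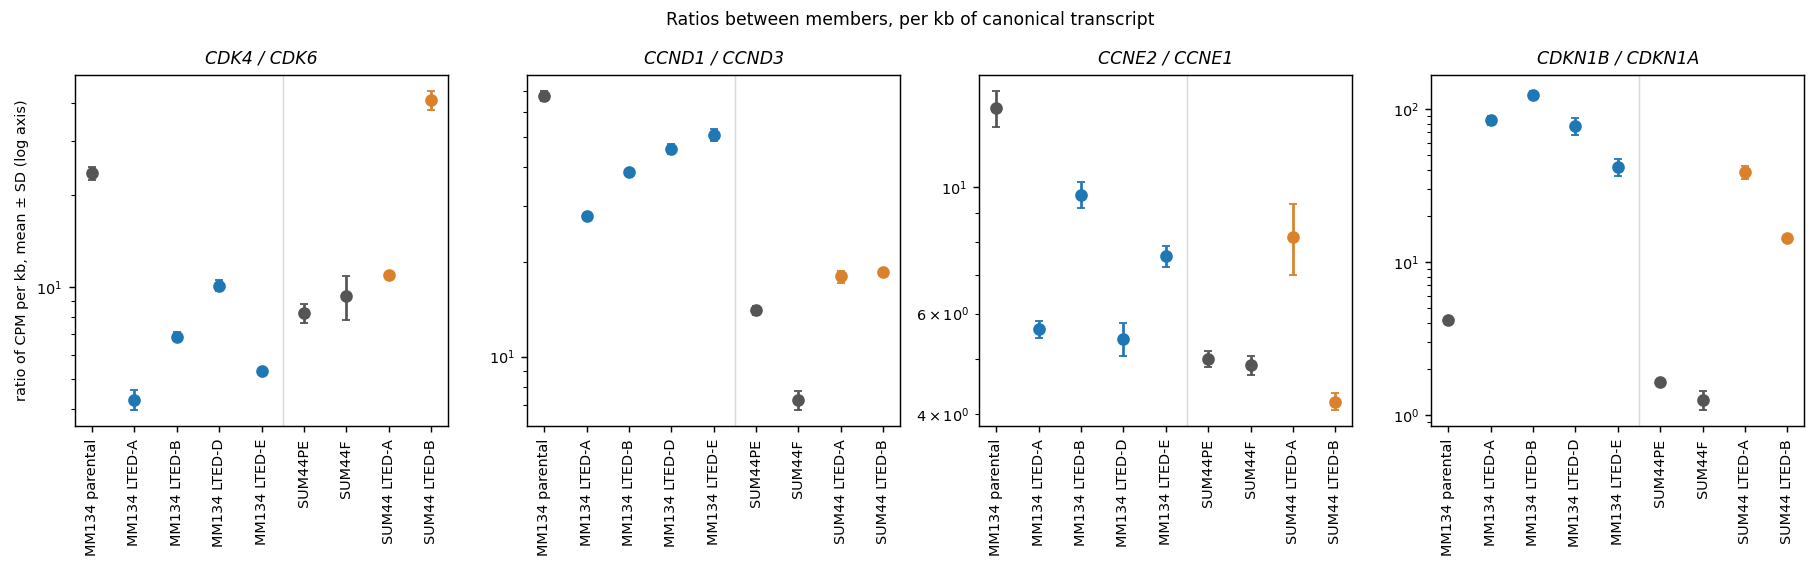
Ratios of CPM per kb of canonical transcript between pairs of members, mean ± SD over the samples of each group (n = 2 in SUM44 LTED-A, n = 3 elsewhere), on log axes. The CDK4 to CDK6 ratio runs from 4.28 in MM134 LTED-A to 40.8 in SUM44 LTED-B, and the CDKN1B to CDKN1A ratio from 1.25 in SUM44F to 123 in MM134 LTED-B.

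CCNE1, the gene of cyclin E1 on chromosome 19 from 29811991 to 29824312, was higher in 4 of the 6 variants. Parental MM134 libraries held 4.53, 4.48 and 4.21 CPM. LTED-D held 10.0, 9.51 and 9.95 CPM, LTED-E 9.22, 9.86 and 9.21 CPM, and LTED-A 8.10, 7.33 and 7.90 CPM, all above the parental libraries. CCNE1 rose 2.18-fold in LTED-D (1.13 ± 0.067 on the log2 scale, adjusted p = 5.9e-11), 2.09-fold in LTED-E (1.06 ± 0.066, adjusted p = 9.6e-11) and 1.73-fold in LTED-A (0.79 ± 0.065, adjusted p = 6.0e-09). LTED-B, at 5.38, 5.12 and 5.28 CPM, did not pass (0.22 ± 0.069, adjusted p = 0.024). The span among the MM134 variants was 0.90 on the log2 scale (adjusted p = 2.6e-09).

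The SUM44 variants parted on CCNE1. SUM44F libraries were at 4.36, 4.598 and 4.41 CPM, LTED-B at 9.59, 9.97 and 10.2 CPM, and LTED-A at 3.11, 3.75 and 3.74 CPM. LTED-B was 2.16-fold above SUM44F (1.11 ± 0.10 on the log2 scale, adjusted p = 8.1e-06) and LTED-A did not pass (-0.44 ± 0.11, adjusted p = 0.011). The direct comparison put LTED-A 2.93-fold below LTED-B (adjusted p = 6.0e-06).

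Cyclin E2, whose gene CCNE2 lies on chromosome 8 from 94879770 to 94896678, was the more abundant E-type message per kb in all 9 groups, from 4.20 ± 0.14 times CCNE1 (SD, n = 3) in SUM44 LTED-B to 13.75 ± 1.0 times (SD, n = 3) in parental MM134 cells. Parental MM134 libraries held 80.8, 81.5 and 85.9 CPM, and no MM134 variant passed 1.5-fold (log2 fold changes -0.50, -0.28, -0.22 and 0.21 in LTED-A, -B, -D and -E). The variants still differed among themselves, with a span of 0.70 on the log2 scale from LTED-A to LTED-E (adjusted p = 1.0e-10). SUM44F libraries held 28.0, 30.6 and 30.6 CPM and LTED-B 57.2, 57.0 and 56.8 CPM, a rise of 1.86-fold (0.90 ± 0.095, adjusted p = 2.7e-05). LTED-A, at 31.3, 46.2 and 46.1 CPM, did not pass (adjusted p = 0.041). Parental MM134 cells held 2.74-fold more CCNE2 than SUM44F (adjusted p = 3.2e-14). MM134 minus SUM44 was -0.81 ± 0.083 (adjusted p = 2.9e-08), from mean changes of -0.20 and 0.60.

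RB1, the common substrate of these kinases, on chromosome 13 from 48303744 to 48599436, was called in no comparison. Parental MM134 libraries held 51.3, 45.4 and 47.6 CPM, and the MM134 LTED libraries ranged from 45.8 to 52.8 CPM, with overlap between all neighbouring MM134 groups. SUM44F libraries were at 32.8, 35.4 and 36.5 CPM, SUM44 LTED-A at 35.04, 46.3 and 46.4 CPM and SUM44 LTED-B at 28.2, 27.3 and 29.7 CPM. The lowest value, in LTED-B, was -0.34 ± 0.080 on the log2 scale (adjusted p = 0.0053) and did not pass. Between parental MM134 cells and SUM44F, RB1 was past the p threshold but within 1.5-fold, 0.44 ± 0.061 higher on the log2 scale in MM134 (adjusted p = 1.4e-06). RB1 message was measured in all 27 libraries, at a group mean of 28.4 CPM or more.

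**Figure D3:**
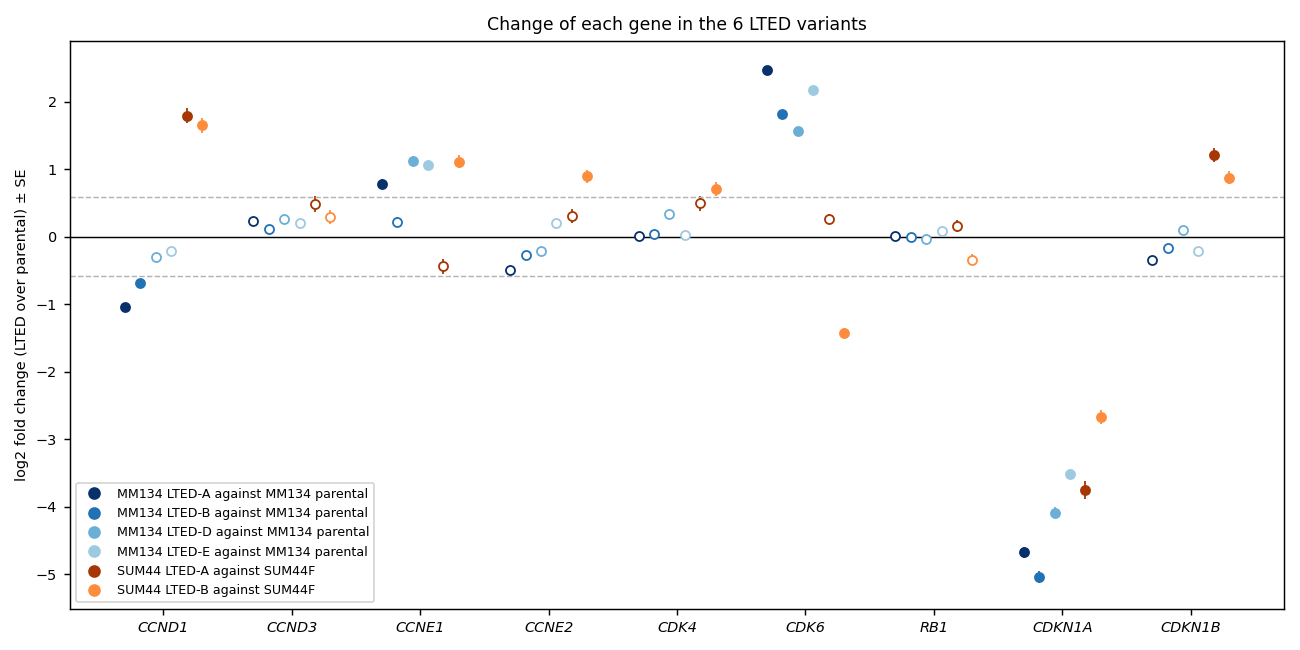
Log2 fold change ± SE of 9 members in each LTED variant against its parental cells (MM134 parental or SUM44F), by edgeR. Filled points are called (over 1.5-fold, dashed lines, with adjusted p under 0.001) and open points are not. CDKN1A is called lower in all 6 variants, CDK6 is called higher in the 4 MM134 variants and lower in SUM44 LTED-B, and RB1 and CCND3 are called in none.

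The number of the 10 genes called was 2 higher and 2 lower in MM134 LTED-A (10.5% and 9.82% of all tested genes were called higher and lower there), 1 and 2 in LTED-B (8.11% and 7.75%), 2 and 1 in LTED-D (9.63% and 7.95%) and 2 and 1 in LTED-E (8.71% and 10.3%). In SUM44 it was 2 and 1 in LTED-A (6.4% and 7.29%) and 5 and 2 in LTED-B (8.7% and 8.57%). LTED-B of SUM44 was the variant with the most members called: CCND1, CCNE1, CCNE2, CDK4 and CDKN1B were higher and CDK6 and CDKN1A lower. Among the MM134 variants 5 members differed (19.6% of genes), and between the SUM44 variants 3 (7.42%). Between SUM44PE and SUM44F 1 member was called (5.57%), between parental MM134 and SUM44F 5 (38.1%), and the LTED change differed between the cell lines for 5 (20.9%). With 10 genes, counts of 1 or 2 are near these shares, and the 5 higher in SUM44 LTED-B are above theirs. The MM134 comparisons share the same 3 parental libraries, and both SUM44 comparisons share SUM44F.

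The further CDK inhibitors CDKN2A, CDKN2B, CDKN2C, CDKN2D and CDKN1C were examined as a list. In MM134, 4 of 5 fell in LTED-A, 3 in LTED-B, 4 in LTED-D and 2 in LTED-E, where 9.82%, 7.75%, 7.95% and 10.3% of all tested genes were called lower, and none rose. The list's median log2 fold change lay between -0.94 in LTED-A and -0.51 in LTED-E, beside medians of -0.03 to 0.02 over all genes. CDKN2B (p15), an INK4 inhibitor, was the one that fell in all 6 variants, from a mean of 17.3 CPM to between 6.02 and 7.25 CPM in MM134 and from 14.2 CPM to 4.42 and 5.62 CPM in SUM44. Its log2 fold changes were -1.48, -1.41, -1.56 and -1.29 in MM134 LTED-A, -B, -D and -E, and -1.74 and -1.38 in SUM44 LTED-A and -B. CDKN2B was also called lower in SUM44PE than in SUM44F (-0.87 ± 0.088, 1.83-fold), so a level below SUM44F was not limited to LTED cells. CDKN1C (p57), the relative of p21 and p27, fell in all 4 MM134 variants, most in LTED-A (-2.25), where 10.3 CPM became 2.21 CPM, and least in LTED-D (-0.60). In SUM44 its values were -0.72 and -0.08, neither called, and SUM44F libraries ranged from 1.52 to 6.44 CPM, with the highest in replicate 1, the library rich in collagen message.

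CDKN2D (p19) and CDKN2C (p18), also INK4 genes, went up in SUM44: CDKN2D by 0.96 and 1.18 and CDKN2C by 0.73 and 0.73 on the log2 scale in LTED-A and LTED-B. In MM134, CDKN2D fell in LTED-A (-0.82) and LTED-D (-1.16), and CDKN2C was not called in any variant. CDKN2A, which makes p16 and ARF, fell in MM134 LTED-A (-0.94), LTED-B (-0.69) and LTED-D (-0.87) but not in LTED-E (-0.02), and had -0.00 and 0.55 in SUM44 LTED-A and LTED-B, neither called. The contrast between cell lines was called for CDKN2D (-1.85), CDKN2A (-0.92) and CDKN2C (-0.80), where 10.2% of all genes were called lower.

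Among 12 genes of kinase activation and cyclin turnover, 2, 2, 1 and 0 fell in MM134 LTED-A, -B, -D and -E, and 1 rose in LTED-E. These counts are near the shares over all genes (9.82%, 7.75%, 7.95% and 10.3% lower, and 8.71% higher in LTED-E), so the list as such is no result in MM134, and the genes called are given one by one. FBXW7, the ubiquitin ligase adaptor that marks cyclin E for destruction, fell in LTED-A (-1.35 ± 0.026 on the log2 scale), LTED-B (-0.93 ± 0.026) and LTED-D (-1.05 ± 0.026). CDK2, the partner of cyclin E, fell in MM134 LTED-A (-0.67 ± 0.042). Another gene of the list, FBXO4, fell in MM134 LTED-B (-0.73 ± 0.086) and was 1.92-fold lower in SUM44 LTED-A. SKP2, which targets p27 for degradation, rose in MM134 LTED-E (0.61 ± 0.037) and in SUM44 LTED-B (0.91 ± 0.066). In SUM44, 3 of 12 rose and 1 fell in LTED-A (6.4% and 7.29% of all genes), and 4 rose and 1 fell in LTED-B (8.7% and 8.57%). CKS1B, the cofactor of SKP2, rose by 1.17 ± 0.11 and 1.46 ± 0.10, and CDC25A, a phosphatase that activates CDK2, by 1.04 ± 0.091 and 1.08 ± 0.084.

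The pocket proteins and E2F factors changed mainly in SUM44. In MM134, E2F2 fell in LTED-A (-0.75) and LTED-B (-0.78), and none of the 9 genes was called in LTED-D or LTED-E. In SUM44 LTED-A, 4 of 9 rose and 2 fell (6.4% and 7.29% of all genes), with E2F2 at 1.31 ± 0.088, E2F1 at 1.08 ± 0.090 and E2F5 at -1.16 ± 0.10. In SUM44 LTED-B, 3 rose and 1 fell (8.7% and 8.57% of all genes), with E2F1 at 1.05 ± 0.083 and TFDP1, the dimer partner of E2F, at 1.04 ± 0.077. RBL2, a relative of RB1 (p130), was 4.12 lower on the log2 scale in parental MM134 cells than in SUM44F (-4.12 ± 0.047, adjusted p = 9.4e-25).

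Of 15 E2F targets that serve S-phase entry, 12 rose and none fell in SUM44 LTED-A, and again 12 rose with none falling in LTED-B (6.4% and 8.7% of all genes rose), with list medians of 0.95 and 0.97 beside -0.06 and -0.09 over all genes. MCM5, a subunit of the replicative helicase, rose by 1.66 ± 0.092 and CCNA2 (cyclin A2) by 1.60 ± 0.11 in LTED-A, and the origin licensing genes CDT1 and ORC1 rose by 1.37 ± 0.089 and 1.32 ± 0.082 in LTED-B. In MM134 none rose. TYMS, thymidylate synthase, fell in LTED-A (-0.67 ± 0.056) and RRM2, a subunit of ribonucleotide reductase, in LTED-D (-0.64 ± 0.041), and the list medians were -0.41, -0.27, -0.14 and 0.03 in LTED-A, -B, -D and -E. The LTED change was called lower in MM134 than in SUM44 for 14 of the 15, against 10.2% of all genes. In parental MM134 cells 14 of 15 were already higher than in SUM44F (median 1.11 on the log2 scale), against 18.9% of all genes. In SUM44PE against SUM44F, 3 of 15 were higher (2.85% of all genes were), MCM5 by 1.43 ± 0.078.

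Of 11 p53 targets tested besides CDKN1A, 3, 1, 3 and 3 fell in MM134 LTED-A, -B, -D and -E and none rose, beside 9.82%, 7.75%, 7.95% and 10.3% of all genes called lower. The list medians there were -0.23, -0.11, -0.09 and -0.12. In SUM44 LTED-A and LTED-B, 4 of the 11 fell and 1 rose in each (7.29% and 8.57% of all genes fell), with medians of -0.41 and -0.39 beside -0.06 and -0.09 over all genes. TP53INP1, a stress protein of the p53 pathway, fell in all 6 variants, by 3.26 ± 0.12, 2.84 ± 0.12, 3.13 ± 0.13 and 2.47 ± 0.12 on the log2 scale in MM134 and by 5.15 ± 0.34 and 4.88 ± 0.28 in SUM44. SESN1 fell in MM134 LTED-A (-0.78 ± 0.035) and LTED-E (-0.88 ± 0.036) and in SUM44 LTED-A (-1.22 ± 0.12) and LTED-B (-1.53 ± 0.11). BBC3, which codes for the death protein PUMA, fell in MM134 LTED-A, LTED-D and LTED-E and in SUM44 LTED-B (-0.79). GDF15 went the other way in SUM44, by 4.12 ± 0.19 in LTED-A and 5.08 ± 0.18 in LTED-B. GDF15 was also 3.67 ± 0.17 higher on the log2 scale in SUM44PE than in SUM44F.

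**Figure D4:**
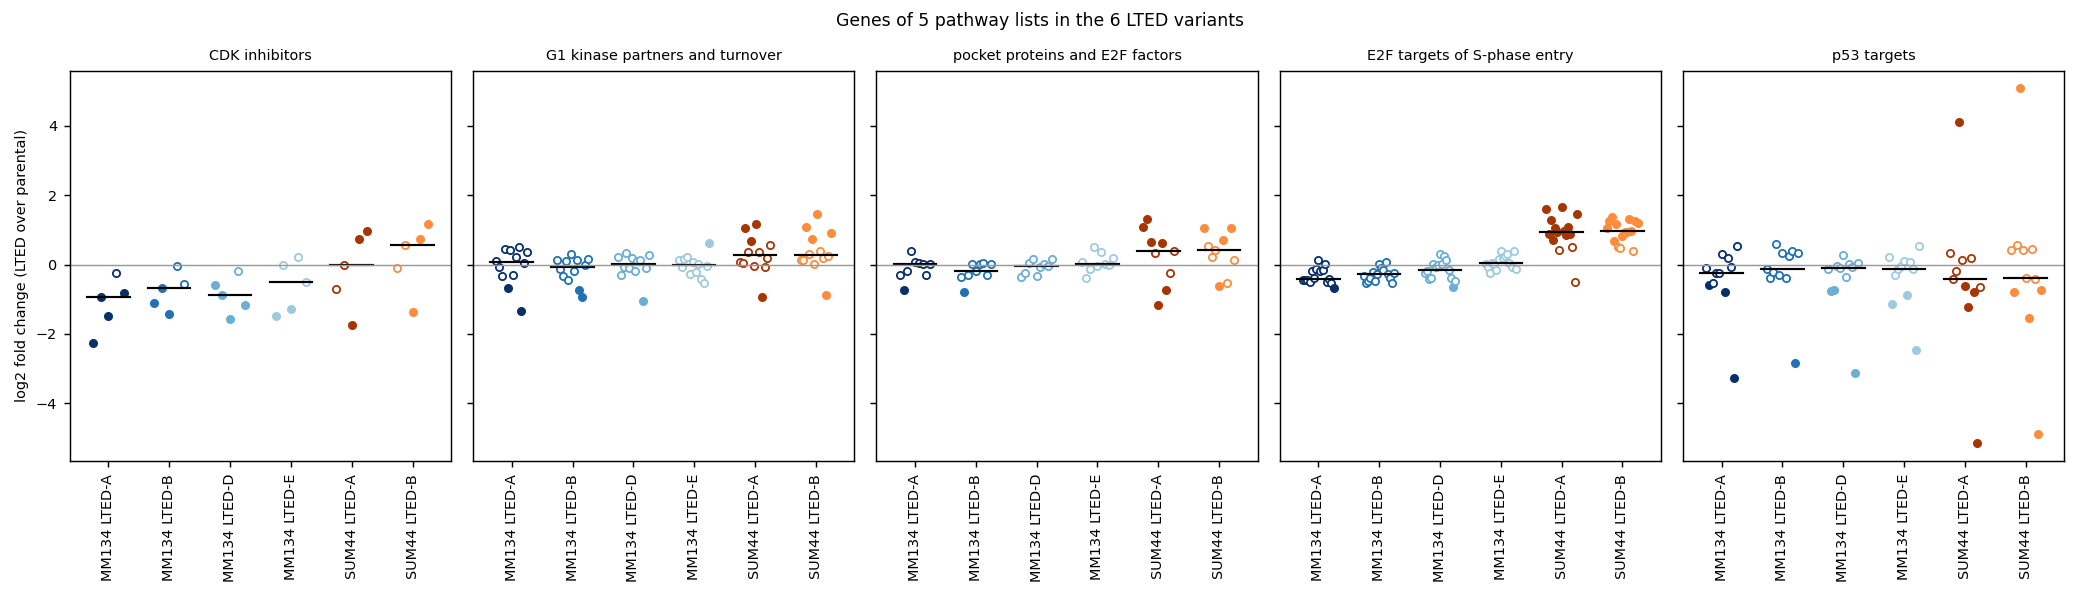
Log2 fold change of each tested gene of 5 pathway lists in the 6 LTED variants against their parental cells. Filled points are called, open points are not, and black lines are medians. The medians of the E2F targets lie above 0 in SUM44 (0.95 and 0.97) and near or below 0 in MM134, and those of the CDK inhibitors lie below 0 in MM134.

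The genes on either side of each member on its chromosome were used to ask whether a whole stretch moved. Of the nearest genes measured at 5 CPM or more on average, 20 on each side were taken, and their median log2 fold change lay between -0.35 (RB1 in SUM44 LTED-A) and 0.45 (CDK4 in MM134 LTED-D) over all members and variants. Around CDKN1A it lay between -0.22 and 0.10, where CDKN1A itself was at -2.67 to -5.04. Its nearest neighbours of this level, SRSF3 and PPIL1, had values from -0.37 to 0.27 and from 0.01 to 0.44 in the 6 variants. Around CDK6 the medians were 0.25, 0.06, 0.33 and 0.10 in MM134 LTED-A, -B, -D and -E, and 0.10 and 0.21 in SUM44 LTED-A and -B. Neighbours were also counted by fold alone, and the share of all genes past that fold was not computed. In these MM134 variants 12, 9, 12 and 9 of the 40 genes were more than 1.5-fold higher, and 1, 1, 1 and 3 lower. SAMD9L, close to CDK6, had 4.11, 4.08, 2.99 and 2.23 there, and -0.52 and -1.74 in SUM44. SAMD9, also close by, had 0.40, 0.62, -0.56 and -0.97 in MM134. The relation of these genes to CDK6 was not tested.

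Around CCND1 the medians were 0.17, 0.06, 0.15 and 0.14 in the MM134 variants, where CCND1 was lower, and 0.16 and 0.31 in the SUM44 variants. Of 10 genes of the 11q13 amplicon, 7 were tested and none of these fell in any MM134 variant, where 7.75% to 10.3% of all genes fell. ANO1, a chloride channel gene next to CCND1, rose in MM134 LTED-A (1.53 ± 0.055), LTED-B (1.82 ± 0.055) and LTED-D (1.89 ± 0.056) and in SUM44 LTED-B (2.18 ± 0.17), but not in MM134 LTED-E (-0.33) or SUM44 LTED-A (-0.20). MYEOV rose in all 4 MM134 variants, by 1.34 to 1.73. All 7 differed between parental MM134 cells and SUM44F (38.1% of all genes did), 6 of them higher in MM134 (18.9% of all genes), with a median of 1.24. LINC02747, beside CCND1, had 2.59 and 2.66 in the SUM44 variants and 1.16 in SUM44PE against SUM44F.

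Around some members that were not called, the median of the neighbours stood away from that over all genes. In SUM44 LTED-A the 40 genes around RB1 had a median of -0.35 (quartiles -1.13 and 0.06), beside -0.06 over all genes. Of these, 16 were more than 1.5-fold lower, while RB1 was at 0.15 ± 0.088. In MM134 LTED-D the medians were 0.45 around CDK4 and 0.33 around CDKN1B, beside -0.03 over all genes. There, 15 of the 40 genes around CDK4 and 13 of the 39 around CDKN1B were more than 1.5-fold higher, with CDK4 at 0.34 and CDKN1B at 0.10. These counts also rest on fold alone, without the share over all genes. LPAR6, which lies within RB1 on the opposite strand, had -1.38 in SUM44 LTED-A, -0.93 in LTED-B and between -0.99 and -1.06 in the MM134 variants. Next to CCNE2 lies TP53INP1, the p53 target that fell in all 6 variants, while CCNE2 and its nearest neighbour NDUFAF6 did not. Of the members, CCND1, CCNE2, CDK4, RB1 and CDKN1B overlap another gene on the opposite strand with a mean of at least 1 CPM. The largest of these relative to the member was INTS8, at 74.1 CPM beside 60.0 CPM of CCNE2, and how the authors' counting used strand is not given in the sources used here.

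**Figure D5:**
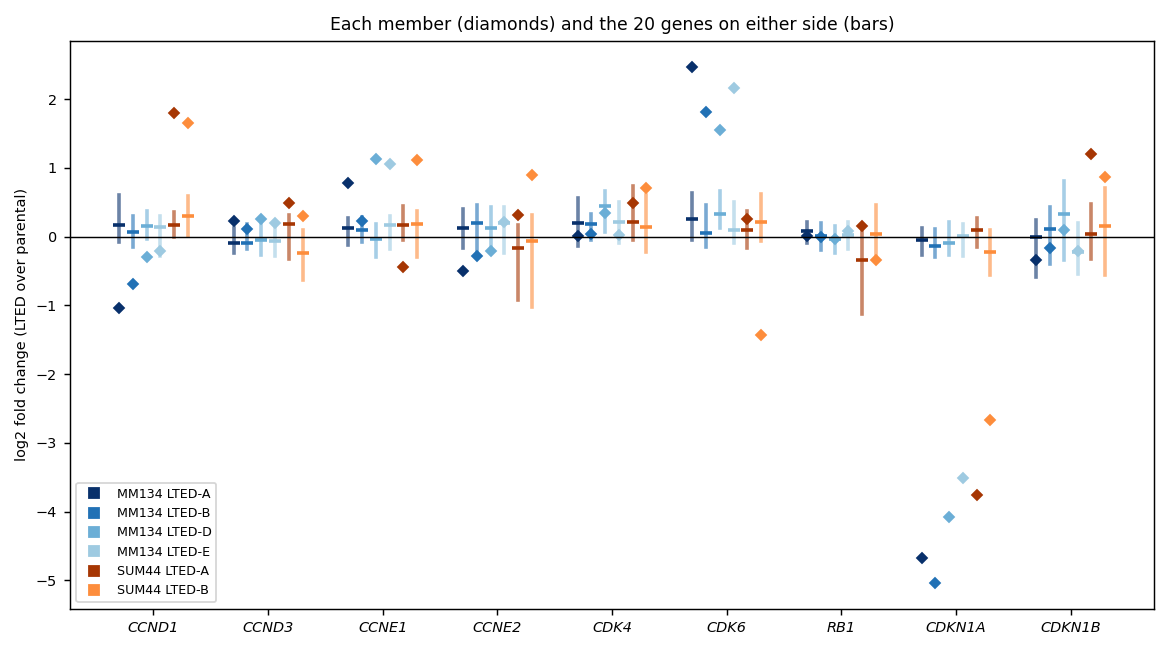
Log2 fold change of each member (diamonds) and of the 20 genes on either side of it on the chromosome (bar from lower to upper quartile, dash at the median), in the 6 LTED variants. The diamonds of CDKN1A, CDK6 and CCND1 stand outside the bars of their neighbours in most variants, and the RB1 neighbours in SUM44 LTED-A reach down to a quartile of -1.13.

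Over the 9 group means of log2(CPM + 1), the genes whose pattern was most like a member's were picked from 11188 protein-coding genes averaging 5 CPM or more, as a description over 9 points that share a cell line and a depth. For CCND1 they were RAD51AP1 (Pearson r = 0.992) and SPAG5 (0.989). CDKN1A was most like SDC3 (0.956) and CHD6 (0.956), and CDK6 most like SLC35B3 (0.970) and UBR3 (0.927). CCNE1 was most like ATP5MJ (0.930) and HSD17B4 (0.930), CCNE2 most like DDX46 (0.990) and TRA2B (0.987), and CDK4 most like RAD50 (0.988) and EIF4H (0.987). CCND3 went with IER2 (0.986) and NIP7 (0.980), RB1 with DNAJB14 (0.986) and NF2 (0.975), and CDKN1B with SFXN1 (0.970) and MASTL (0.968). CCND2 was most like THRSP (0.949) and COL3A1 (0.941), with a single library behind its highest mean. Among the members, CCND1 and CCNE2 were closest (r = 0.943 over the 9 groups), and both were higher in each of the 5 MM134 groups than in each of the 4 SUM44 groups.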

How the data were processed

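The authors prepared libraries with a stranded total RNA kit from 27 wells (9 groups of 3 wells) and quantified them with Salmon 0.6.0. The deposited values are estimated counts per Ensembl gene on hg38, not scaled for depth or length, and trimming and the strand setting are not given in the sources used here. Symbols, positions and transcript lengths came from GENCODE v44 on the same build, in which 56434 of the 60619 genes were found. The 10 members and the gene lists were chosen with earlier results of these data known.

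Counts were rounded to whole numbers, filtered with filterByExpr, scaled by TMM and tested with edgeR 4.0.16 in R 4.3.3 (the quasi-likelihood test, in both directions, with p-values adjusted over all genes tested by the method of Benjamini and Hochberg). Separate fits were made of the MM134 libraries (26061 genes), of SUM44F with its LTED variants (26828), of these with SUM44PE (27458), and of both cell lines (29198). Calls needed a fold change over 1.5 and an adjusted p below 0.001, as in the study's methods. Levels are TMM-scaled CPM over all 27 libraries, so that ratios of levels can differ slightly from fitted fold changes. Named genes were all members, the CDKN2 genes, CDKN1C and ESR1, and the 2 genes most like each member. Further names were taken from the 3 called genes with the largest change of each list in each comparison (mean of at least 1 CPM in a group). Not all genes that meet this last rule are named. Other genes next to a member, and COL3A1 and CD3E, were named after their values were seen. Alternatives were no filter, at least 10 counts in every library, DESeq2 1.42.0, RLE size factors, other thresholds, a replicate block, each library left out, and other sets of libraries, lengths and windows. The fits were tested on simulated data. Depth was 28583554 to 134882175 counts per library.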

Additional observations from a re-analysis of the deposited data

Results flagged for a closer look

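A test of the difference itself set apart the response of the 2 cell lines for 5 members (20.9% of all genes). Its p-values measure the spread between wells and not that between variants. The LTED change in MM134 minus that in SUM44, on the log2 scale, was -2.29 for CCND1, -0.81 for CCNE2, 2.58 for CDK6, -1.13 for CDKN1A and -1.20 for CDKN1B. For CDKN1A single variants of the 2 lines overlapped, at -3.51 in MM134 LTED-E and -3.75 in SUM44 LTED-A. For CDK6 the SUM44 mean joins variants of opposite sign, at 0.26 in LTED-A (not called) and -1.42 in LTED-B.

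Among the 4 MM134 variants, the largest minus the smallest change was called for 5 members (19.6% of all genes), at 0.83 for CCND1, 0.90 for CCNE1, 0.70 for CCNE2, 0.92 for CDK6 and 1.52 for CDKN1A. CCND1 was lowest in LTED-A, CCNE1 lowest in LTED-B, CDK6 lowest in LTED-D and CDKN1A lowest in LTED-B, so the order of variants was not the same for each gene.

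Between the SUM44 variants, LTED-A minus LTED-B was called for 3 members (7.42% of all genes), at -1.55 for CCNE1, 1.68 for CDK6 and -1.08 for CDKN1A.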

How the results depend on the processing

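Under DESeq2, RLE size factors, the stricter count filter, parental cells with 1 variant only, replicates 2 and 3 of SUM44 LTED-A kept separate, SUM44PE in the fit, and an adjusted p under 0.05, no count of called members left 1.5 times its value. With no fold minimum, the counts became 7 in MM134 LTED-A, 5 in LTED-B, 7 in LTED-D and 7 in LTED-E. By that edgeR test, 13839 to 14803 of the 26061 genes had an unadjusted p under 0.05 in these MM134 comparisons. With a minimum of 2-fold, the counts became 1 for the differences among MM134 variants, 4 in SUM44 LTED-B and 0 between SUM44PE and SUM44F. The shares of all genes called at these fold settings are not given here, so the counts are not set against them. Without a filter on low counts, CCND2 was called lower in both SUM44 variants and in SUM44PE, which gave 2 members between SUM44PE and SUM44F. With each library left out, the counts were 4 in MM134 LTED-A, 3 in each of LTED-B, -D and -E, 5 for the differences among MM134 variants, 3 in SUM44 LTED-A, 6 to 7 in LTED-B, 2 to 3 between the SUM44 variants, 0 to 1 between SUM44PE and SUM44F, 5 between the parental lines and 5 for the difference of responses. The value without SUM44 LTED-A replicate 1 assumes that its lone sample varies like the other groups. The replicate block gave the same counts (4, 3, 3 and 3 in the MM134 variants, 5 among them, 3 and 7 in the SUM44 variants, 3 between these, and 1, 5 and 5 for the rest). The numbers were not taken to pair the samples, since 0 of 30 same-numbered pairs in MM134 and 3 of 9 in SUM44 had deviations with a correlation over 0.1. Those 3 were all the pairs of replicate 3 in SUM44 (0.118 to 0.184), and a shared source of these samples was not tested.

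Signs turned only for values near 0 that were not called. With at least 10 counts in every library, CDK4 and RB1 in MM134 LTED-A were -0.00499 and -0.00735, and CDKN1B between SUM44PE and SUM44F was 0.00725. Without a filter, SUM44PE against SUM44F gave 0.00213 for CCNE1, 0.00557 for RB1 and 0.0132 for CDKN1B. With libraries left out, CDK4 in MM134 LTED-A ranged from -0.00436 to 0.0428, and the RB1 values were -0.0293 to 0.0608 there, between -0.0408 and 0.0490 for LTED-B, and between -0.0693 and 0.0203 for LTED-D. Between SUM44PE and SUM44F, CCNE1 ranged from -0.0236 to 0.00728, CCNE2 from -0.0158 to 0.0677, RB1 from -0.0458 to 0.0508 and CDKN1B from -0.0400 to 0.0569, and between the parental lines CCNE1 ranged from -0.0427 to 0.0118. The cause was not tested.

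With the union of exons as length, 34 of 36 ratios stayed over 1, the exceptions being CDKN1B to CDKN1A in SUM44PE (0.599) and SUM44F (0.456). Over the orders of the 9 groups for all 10 members, CPM without TMM left 39 in place of 40 neighbouring pairs that did not overlap. The share of such pairs over all genes was not computed. Taking 10 genes on either side gave a largest median of 0.457. Depth limits CDKN1A in MM134 LTED (59 to 231 counts) and CCND2, which was near 0.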
